A study of Homo sapiens with 27 samples.

Results

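The genes described here encode 10 enzymes that build fatty acids or put double bonds into them: ACLY, ACSS2, ME1, ACACA, FASN, ELOVL5, ELOVL6, SCD, FADS1 and FADS2. They were chosen by symbol, for what the enzymes do, with earlier results of these data known. Each was looked up through GENCODE release 44 in a table of 57905 gene identifiers. The lookup found 9 of the 10. For ACACA, which encodes acetyl-CoA carboxylase 1, the GENCODE 44 identifier had no match, so its expression was not read. The missing match does not say whether ACACA is expressed in these cells. Expression was measured by RNA sequencing in U937, an established human myeloid leukemia line with monocytic features. Its 9 libraries fall into 3 groups of 3. One group is the control, for which the study's methods name water as the vehicle of matrine, and the others received matrine at 0.8 mg/ml, in one case for 30 min and in the other for 24 h. Matrine is an alkaloid of the herb Sophora flavescens, and the experiment asks how the transcriptome of myeloid leukemia cells answers to it early and late. The same 3 control libraries serve both times. The time that the control cells were in culture is not given in the sources used here, so 24 h of matrine and 24 h in culture cannot be told apart.

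Mammalian cells make palmitate in the cytosol from acetyl-CoA. ATP citrate lyase (ACLY) cuts citrate into acetyl-CoA, and acetyl-CoA synthetase 2 (ACSS2) makes acetyl-CoA from acetate. Acetyl-CoA carboxylase 1 turns acetyl-CoA into malonyl-CoA, and fatty acid synthase (FASN) joins these units with NADPH, part of which malic enzyme 1 (ME1) can supply. Elongases of the ELOVL family lengthen the chains, stearoyl-CoA desaturase (SCD) makes monounsaturated fatty acids, and FADS2 and FADS1 carry out the delta-6 and delta-5 desaturation of polyunsaturated fatty acids. Many of these genes, and those of cholesterol synthesis, are known targets of the SREBP transcription factors, which are held in the endoplasmic reticulum by INSIG proteins when sterols are plentiful. In tumor cells the pathway is known for supplying membrane lipids during growth.

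Because several of these genes moved together, the stretches before their transcription starts were read from RefSeq promoters (GRCh38.p14), which held entries for 9 of the 10 genes. FASN was not matched. The sequences of SCD, ACSS2 and ACLY are shown 5′ to 3′ on the strand of the gene. SCD, ACSS2, FADS2, FADS1, ACLY and ELOVL5 were considered, and only those shown had a long enough stretch outside annotated untranslated regions. Among the members called at 24 h, SCD had the highest level, ACSS2 the highest fold change and ACLY the lowest fold change. Capitals mark CCAAT, the core of the motif bound by NF-Y, on either strand (ATTGG is CCAAT on the opposite strand). The window is chr10:100346983-100347232 on the plus strand for SCD, chr20:34874739-34874941 on the plus strand for ACSS2 and chr17:41919023-41919272 on the minus strand for ACLY.
SCD: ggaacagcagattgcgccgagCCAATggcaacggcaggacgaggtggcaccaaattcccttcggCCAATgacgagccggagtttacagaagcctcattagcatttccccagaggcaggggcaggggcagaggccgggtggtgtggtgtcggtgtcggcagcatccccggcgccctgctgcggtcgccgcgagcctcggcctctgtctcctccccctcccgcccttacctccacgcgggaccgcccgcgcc
ACSS2: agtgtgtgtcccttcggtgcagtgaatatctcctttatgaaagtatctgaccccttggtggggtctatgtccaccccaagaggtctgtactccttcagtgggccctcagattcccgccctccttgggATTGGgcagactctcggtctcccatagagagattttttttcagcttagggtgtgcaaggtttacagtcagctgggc
ACLY: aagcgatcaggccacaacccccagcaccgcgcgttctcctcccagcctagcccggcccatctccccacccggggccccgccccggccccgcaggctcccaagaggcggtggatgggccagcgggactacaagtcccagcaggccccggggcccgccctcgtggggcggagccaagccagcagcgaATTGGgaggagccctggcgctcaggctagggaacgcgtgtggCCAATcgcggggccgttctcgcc

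SCD holds CCAAT 229 and 186 bases before its start. In ACLY the nearest CCAAT lies 23 bases before the start, on the strand of the gene, and the other 65 bases before it, on the opposite strand. The stretches of SCD and ACLY are 250 bases long and end at the start, while that of ACSS2 is 203 bases long and ends 47 bases short of it, where an annotated untranslated region begins. For ACSS2 and ACLY the start used is the first of 2 in RefSeq and lies inside the gene as GENCODE draws it. The window of the second start held 0 matches of CCAAT for ACSS2 and 2 for ACLY. Which start U937 cells use was not tested. G and C made up 68.0% of the SCD stretch, 73.6% of that of ACLY and 52.2% of that of ACSS2. The 9 genes had 14 promoter windows of 300 bases, since ACACA had 3 and ACLY, ACSS2 and FADS2 had 2 each, some of which overlap. The windows of ACACA, ELOVL6 and ME1 are counted although no change was measured for these genes, and FASN is missing. The counts of windows and genes below thus do not describe the genes that moved. Read on both strands, CCAAT was present in 8 of the 14 windows, against 34.6% of 35116 RefSeq promoters, and in the first window of 4 of 9 genes. It was absent from the windows of FADS1, ELOVL6 and ME1, and FADS2 held it only after the start, in its second window. The GC box GGGCGG, bound by SP1, was present in 11 of 14 windows, against 45.0% of all promoters, and in the first window of 7 of 9 genes. The E-box CACGTG, a site of MYC and of the carbohydrate response factor ChREBP, was present in 1 window, that of ELOVL5, against 7.3% of all promoters. The letters TCACNCCAC, the core of a sterol regulatory element, were in 0 of 14 windows, against 1.1% of all promoters. A match of letters is a description of the sequence.

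Levels are given as FPKM, counts scaled by gene length and by library total, as the authors deposited them, so levels of different genes can be set side by side. Library totals ranged from 17314931 to 21930018 counts. Libraries within a group differed beyond sampling noise and were kept as separate replicates. Whether they came from separate cultures is not given in the labels, so the p-values measure the spread between these libraries. Myeloid markers were present, with a summed level over 8 genes of 1246.04 to 1400.62 FPKM in control, 1337.84 to 1350.96 at 30 min and 1718.74 to 1840.62 at 24 h. ELANE, a neutrophil granule protease, carried most of that sum and of its rise (885.1 FPKM in control, 1378 FPKM at 24 h), while MPO and CSF1R were under 2 FPKM in each group mean. LYZ, which encodes lysozyme, and SPI1, which encodes the myeloid factor PU.1, were lower at 24 h than in control (243.6 against 292.3 FPKM and 56.0 against 67.6 FPKM, adjusted p = 2.9e-05 and 0.00046 with edgeR), both under 1.5-fold. PTPRC and CD4 were higher at 24 h than in control (24.2 against 16.4 FPKM and 43.7 against 28.6 FPKM, adjusted p = 4.4e-07 and 2.8e-08 with edgeR), also under 1.5-fold. MPO went from 0.31 to 1.84 FPKM and passed the filter on levels only through 24 h. CD33 overlapped between control and 24 h. The part of this marker shift in the results was not tested. The summed level of 15 markers of other cell types, adipocytes and hepatocytes included, stayed between 1.03 and 2.09 FPKM over all 9 libraries, and 8 of these genes had a level of 0 in all of them. In bulk RNA, fewer cells with a transcript and less transcript per cell cannot be told apart.

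After 24 h of matrine, 6 of the 7 members that could be tested were higher than in control: ACSS2, SCD, FADS2, FADS1, FASN and ACLY. Their fold changes ran from 1.70 for ACLY to 12.5 for ACSS2. Testing was limited to genes averaging more than 1 FPKM across both groups compared. A gene was called at an adjusted p below 0.05 from edgeR's quasi-likelihood test (Benjamini-Hochberg) with a fold change of at least 1.5. Over all 12035 genes tested, 15.1% were called higher and 11.2% lower at 24 h. The median log2 fold change of the 7 members was 2.17, against 0.01 over all genes tested. These 7 members passed the filter in each group taken alone, so the filter did not select them for their level at 24 h. The members were chosen with earlier results of these data known, so their share called is a description. After 30 min, 0 of the 7 were called in either direction by edgeR, DESeq2 or limma, and 0 had an unadjusted p below 0.05 in edgeR, where 0.0949% of 11587 genes were called higher and 0.544% lower.

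**Figure D1:**
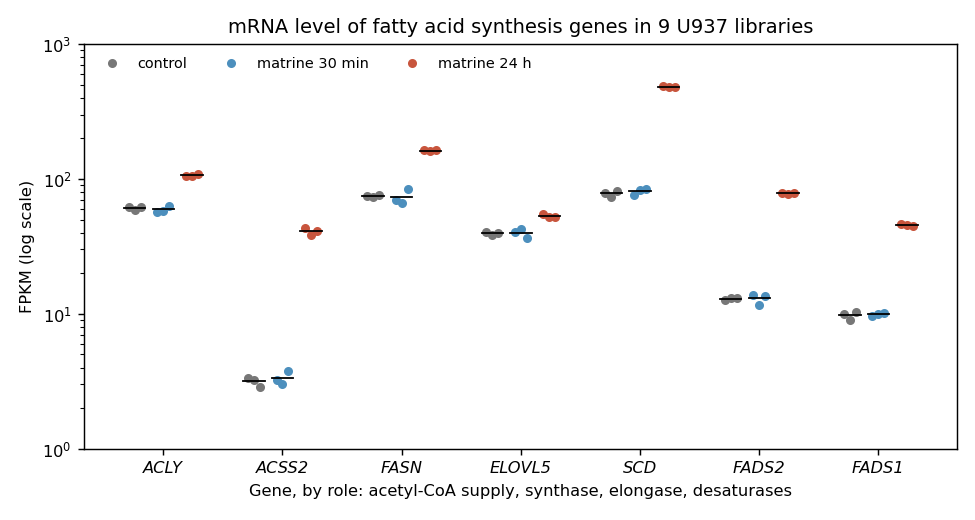
FPKM (vertical axis, log scale) of the 7 members with a mean above 1 FPKM, in the 3 control, 3 matrine 30 min and 3 matrine 24 h libraries (points, 1 per library, with a bar at the group mean). The 24 h points lie above the other 6 for each gene, with SCD highest at 476.30 to 489.74 FPKM, while the 30 min points overlap those of control.

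ACSS2 (ENSG00000131069, chromosome 20 from 34872146 to 34927962, plus strand, GRCh38 in GENCODE 44) changed most. Its level was 3.36, 3.23 and 2.87 FPKM in the control libraries, 3.21, 3.03 and 3.80 FPKM at 30 min, and 43.39, 38.09 and 41.23 FPKM at 24 h. The 3 libraries at 24 h stood far above the other 6, which overlapped with each other. The log2 fold change at 24 h was 3.64 (standard error 0.087, adjusted p = 2.3e-18 with edgeR), which is rank 16 from the top among 12035 genes tested. At 30 min it was 0.09 (95% interval -0.10 to 0.29).

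ACLY (ENSG00000131473, chromosome 17 from 41866917 to 41930542, minus strand) takes the other route to acetyl-CoA. Control libraries held 61.66, 58.39 and 62.44 FPKM, those at 30 min 56.57, 58.05 and 63.41 FPKM, and those at 24 h 105.50, 105.36 and 108.76 FPKM. The groups at 24 h and in control did not overlap, and the log2 fold change was 0.76 (standard error 0.054, adjusted p = 1.3e-10 with edgeR), or 1.70-fold. ACLY was thus already abundant in control, at 60.8 ± 2.15 FPKM (SD, n = 3), where ACSS2 stood at 3.15 ± 0.254 FPKM (SD, n = 3).

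The ratio of ACSS2 to ACLY, taken within a library so that scaling between libraries drops out, was 0.0545, 0.0553 and 0.0460 in control, 0.0567, 0.0522 and 0.0599 at 30 min, and 0.411, 0.361 and 0.379 at 24 h. Its geometric mean was 7.41-fold higher at 24 h than in control. All 3 ratios at 24 h were above all those of control, and the two-sided exact permutation p was 0.1, the smallest that 3 against 3 libraries allow (0.2 after Benjamini-Hochberg adjustment over the 6 tests of ratios run).

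ME1 (ENSG00000065833, chromosome 6 from 83210402 to 83431051, minus strand) had a count of 0 in all 9 libraries. A count of 0 allows up to 3 counts, or 0.137 to 0.173 CPM (counts scaled to the library total) depending on the library, which covers counting error only. No change of ME1 can be given.

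FASN (ENSG00000169710, chromosome 17 from 82078338 to 82098294, minus strand) was the 1 member of palmitate synthesis proper that was read. Its level was 74.79, 72.89 and 76.36 FPKM in control and 69.36, 66.20 and 84.23 FPKM at 30 min. At 24 h it was 162.42, 161.78 and 162.81 FPKM. The libraries at 24 h were close to each other and apart from all libraries of the other groups. The log2 fold change at 24 h was 1.07 (standard error 0.067, adjusted p = 1.7e-11 with edgeR), or 2.10-fold. The 30 min libraries spread more than those of the other groups, with an SD of 9.63 FPKM against 1.74 in control and 0.52 at 24 h.

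**Figure D2:**
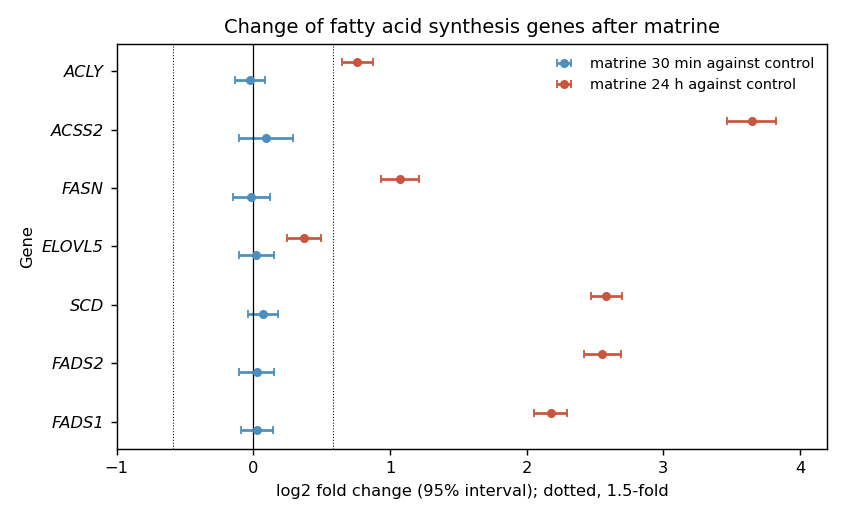
log2 fold change against control (horizontal axis, with the 95% interval from edgeR) of 7 members after 30 min and 24 h of matrine, where dotted lines mark 1.5-fold. At 30 min every interval holds 0, and at 24 h the values run from 0.37 for ELOVL5 to 3.64 for ACSS2.

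The elongase ELOVL5 (ENSG00000012660, chromosome 6 from 53267398 to 53349179, minus strand), which lengthens polyunsaturated chains, had 40.70, 38.31 and 39.61 FPKM in control, 40.24, 42.72 and 36.48 FPKM at 30 min, and 54.54, 51.93 and 52.17 FPKM at 24 h. Its libraries at 24 h did not overlap with control, and its log2 fold change of 0.37 (95% interval 0.25 to 0.50, adjusted p = 1.4e-05 with edgeR) lay under the fold change threshold. Without a threshold on the fold change ELOVL5 was called higher. ELOVL6 (ENSG00000170522, chromosome 4 from 110045846 to 110199199, minus strand), which elongates palmitate, had counts of 0, 1 and 2 in control, 0, 7 and 0 at 30 min, and 1, 0 and 0 at 24 h. At this depth no level of ELOVL6 could be set apart from 0 outside the 1 library with 7 counts.

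SCD (ENSG00000099194, chromosome 10 from 100347233 to 100364826, plus strand) was the most abundant member in each group. Control libraries held 79.28, 73.13 and 81.59 FPKM and 30 min libraries 76.13, 83.15 and 84.25 FPKM. After 24 h the level was 489.74, 482.70 and 476.30 FPKM. The log2 fold change at 24 h was 2.58 (standard error 0.054, adjusted p = 3.1e-19 with edgeR), or 5.99-fold with a 95% interval from 5.54 to 6.48. Ranked by mean FPKM among all identifiers of the table, SCD stood at place 586 in control and at place 56 at 24 h. It took 0.042% ± 0.00265 of all counts in control and 0.259% ± 0.004 at 24 h (SD, n = 3 libraries each).

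FADS2 (ENSG00000134824, chromosome 11 from 61792980 to 61867354, plus strand) had 12.63, 13.01 and 13.05 FPKM in control, 13.90, 11.58 and 13.54 FPKM at 30 min, and 78.40, 77.60 and 78.62 FPKM at 24 h. Its log2 fold change at 24 h was 2.55 (standard error 0.066, adjusted p = 7.3e-18 with edgeR). FADS1 (ENSG00000149485, chromosome 11 from 61799627 to 61829318, minus strand) had 9.99, 9.08 and 10.32 FPKM in control, 9.58, 9.94 and 10.21 FPKM at 30 min, and 46.29, 45.76 and 44.99 FPKM at 24 h. Its log2 fold change at 24 h was 2.17 (standard error 0.057, adjusted p = 9.5e-18 with edgeR). For both genes the libraries at 24 h were well apart from the other 6. The 2 genes overlap on opposite strands and share 490 exonic bases in GENCODE 44, which is 4.8% of those of FADS1 and 4.6% of those of FADS2. The strand setting of the counting is not given in the sources used here, so reads from this shared stretch cannot be assigned to one of them with certainty.

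The ratio of FADS2 to FADS1 was 1.26, 1.43 and 1.26 in control, 1.45, 1.17 and 1.33 at 30 min, and 1.69, 1.70 and 1.75 at 24 h. The values at 24 h were above all others, with a 1.30-fold higher geometric mean than control (two-sided exact permutation p = 0.1, adjusted 0.2). The ratio of SCD to FASN was 1.06, 1.00 and 1.07 in control, 1.10, 1.26 and 1.00 at 30 min, and 3.02, 2.98 and 2.92 at 24 h. That is a 2.85-fold higher ratio at 24 h (two-sided exact permutation p = 0.1, adjusted 0.2), with each ratio at 24 h above each ratio in control. At 30 min the exact permutation p was 0.4 for ACSS2 to ACLY, 0.5 for SCD to FASN and 1 for FADS2 to FADS1.

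**Figure D3:**
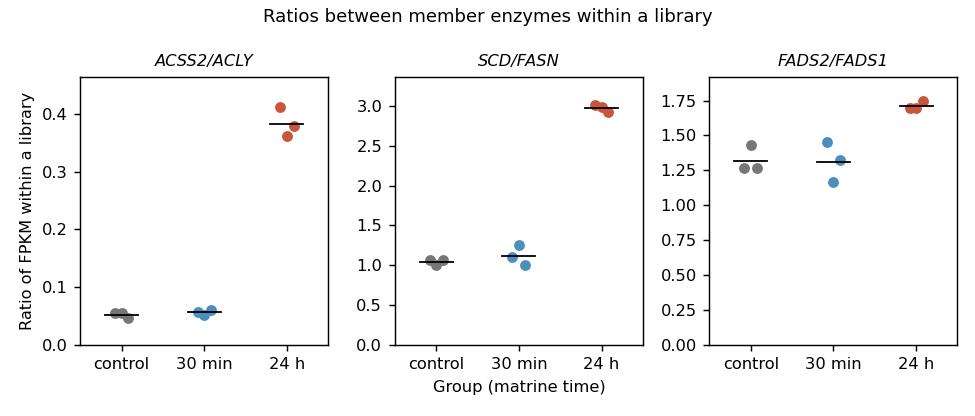
Ratio of FPKM between pairs of member genes within each library (vertical axes start at 0), by group, with points for the 3 libraries of a group and a bar at their geometric mean. At 24 h all 3 ratios lie above the control libraries, at 0.361 to 0.411 for ACSS2 to ACLY, 2.92 to 3.02 for SCD to FASN and 1.69 to 1.75 for FADS2 to FADS1.

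Ordered by mean FPKM in control, SCD (78.0) and FASN (74.7) came first and overlapped in their libraries. ACLY (60.8), ELOVL5 (39.5), FADS2 (12.9), FADS1 (9.80) and ACSS2 (3.15) followed, each apart from its neighbors in all 3 libraries. The order at 30 min was the same, again with an overlap between SCD and FASN. At 24 h SCD (482.9) stood apart from FASN (162.3), followed by ACLY (106.5), FADS2 (78.2), ELOVL5 (52.9), FADS1 (45.7) and ACSS2 (40.9), with no overlap between neighbors. FADS2 thereby passed ELOVL5, the 1 exchange of places. ELOVL6 and ME1 came last in each group. Scaling FPKM by TMM factors moved 0 members in the order of any group. Each factor applies to all genes of a library, so the order within a library could not change.

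Together the 9 matched members took 0.183% ± 0.00569 of the counts in control, 0.183% ± 0.0118 at 30 min and 0.638% ± 0.00551 at 24 h (SD, n = 3 libraries each). SCD supplied 22.8% ± 0.569 of these member counts in control and 40.6% ± 0.346 at 24 h. These are shares of counts, in which longer genes weigh more.

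At 30 min the log2 fold changes of the 7 tested members lay between -0.02 for ACLY and FASN and 0.09 for ACSS2, with adjusted p from 0.69 to 0.97 (edgeR). The 95% intervals were narrow. Over the 7 genes their lowest bound was -0.15 (FASN) and their highest 0.29 (ACSS2), so a 1.5-fold change in either direction lay outside each interval. The control and 30 min libraries overlapped in all 7, where 13.8% of the genes tested at 30 min did not overlap in one direction or the other. At 24 h the libraries of all 7, ELOVL5 included, lay above those of control, as they did in 38.7% of the genes tested. Compared directly with 30 min, the same 6 members were higher at 24 h, with 15.4% of 11981 genes called higher and 11.5% lower. This comparison shares its libraries with both others.

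Of the other enzymes of fatty acid synthesis, elongation and activation, most did not pass. The list held 31 genes, of which 23 were tested at 24 h, 3 were called higher and 1 lower, with a median log2 fold change of 0.20. Its share called higher was near the 15.1% over all genes tested, and the genes named next are given as single genes. ACACB, the mitochondrial acetyl-CoA carboxylase, rose from 1.26 to 4.79 FPKM (log2 fold change 1.89, adjusted p = 1.9e-13). AACS, which activates acetoacetate for lipid synthesis, rose from 1.44 to 3.71 FPKM (1.31, adjusted p = 9.5e-12). SLC25A1, the carrier that brings mitochondrial citrate to ACLY in the cytosol, rose from 27.8 to 51.7 FPKM (0.85, adjusted p = 2.4e-08). MCAT of mitochondrial fatty acid synthesis fell from 6.81 to 2.86 FPKM (-1.30, adjusted p = 2.0e-08). The related desaturase SCD5 had a log2 fold change of -0.02 and FADS3 one of 0.31, named here beside their relatives after their values were seen, and neither was called. CYB5A, a cytochrome b5 that passes electrons to desaturases, had a count of 0 in all 9 libraries and was likewise named after its values were seen.

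NADPH, which the synthase and the elongation system use, comes from several enzymes besides ME1. Of 10 genes listed, 9 were tested, 3 were called higher and 2 lower at 24 h (15.1% and 11.2% over all genes tested), and the median log2 fold change was 0.41. PGD of the pentose phosphate pathway (1.18) and the cytosolic isocitrate dehydrogenase IDH1 (0.96) were among the higher ones, with adjusted p = 1.0e-13 and 2.4e-12 (edgeR). PGD reached 193.6 FPKM from 82.8 FPKM. MTHFD1 of folate metabolism (-0.78) and the mitochondrial malic enzyme ME2 (-0.67) were lower, with adjusted p = 4.6e-11 and 5.9e-09.

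Among 22 controllers of lipid synthesis, 20 were tested at 24 h, with 4 called higher, 2 lower and a median log2 fold change of 0.18. These numbers are near the 15.1% and 11.2% over all genes tested. The 4 include NR1H3, which passed the filter only through its level at 24 h. SREBF2, which encodes SREBP-2, the main factor of cholesterol genes, had 23.1 ± 0.609 FPKM in control, 22.8 ± 1.49 at 30 min and 67.1 ± 1.11 at 24 h (SD, n = 3), a log2 fold change of 1.49 (adjusted p = 7.1e-15, edgeR) at 24 h. INSIG1, itself a target of SREBP, had 32.0 ± 0.754 FPKM in control, 26.4 ± 2.52 at 30 min and 217.2 ± 7.61 at 24 h (SD, n = 3). At 30 min its 3 libraries were below those of control, with a log2 fold change of -0.26 (adjusted p = 0.035, edgeR) that stayed under 1.5-fold, and at 24 h the log2 fold change was 2.71 (adjusted p = 1.5e-18, edgeR). SREBF1, the source of the SREBP-1 forms known for fatty acid genes, had 11.1 ± 0.543 FPKM in control and 15.1 ± 0.341 FPKM at 24 h (SD, n = 3), a log2 fold change of 0.40 that stayed under 1.5-fold.

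The nuclear receptor gene NR1H3, which encodes LXR alpha, was low, at 0.85 FPKM in control, 0.78 FPKM at 30 min and 1.44 FPKM at 24 h. It passed the filter at 24 h only through its level there, so its call (log2 fold change 0.72) is given as a description, and it was not tested at 30 min. MLXIPL, which encodes ChREBP, was at 0 to 0.01 FPKM in all libraries. TRIB3, a stress-induced pseudokinase, rose by a log2 fold change of 0.99 (adjusted p = 2.0e-11), and MYLIP, an LXR target that degrades the LDL receptor, fell by 0.98 on the log2 scale (adjusted p = 1.5e-09). MYC fell at both times, from 207.2 ± 5.10 FPKM in control to 54.1 ± 4.58 at 30 min and 43.8 ± 2.03 at 24 h (SD, n = 3), and was the 1 gene of all lists called at 30 min. At 30 min 0 of the 7 tested members were called, and a link between MYC and the members was not tested.

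Cholesterol synthesis was the list whose values came nearest to those of the members. Of 21 genes, 20 were tested at 24 h, 17 were called higher and 0 lower, against 15.1% and 11.2% over all genes tested. The median log2 fold change was 2.53 against 2.17 over the 7 tested members. At 30 min 0 of 20 were called by edgeR, DESeq2 or limma, where edgeR called 0.0949% of all genes tested higher and 0.544% lower. The median at 30 min was 0.02, with an unadjusted p below 0.05 (edgeR) in 2, both downward. At 24 h, PMVK (-0.45) and LBR (-0.47), named after their values were seen, were lower without reaching 1.5-fold (adjusted p = 3.2e-06 and 8.1e-06, edgeR). Among those with the smallest adjusted p were HMGCS1, which makes HMG-CoA (4.27), and MVD, which makes isopentenyl diphosphate (3.66), given as log2 fold changes with adjusted p = 2.0e-20 and 2.3e-19. ACSS2 at 3.64 lay within the range of this list, while ACLY, FASN and ELOVL5 lay below the lowest of its called genes, NSDHL (1.52, named after its values were seen).

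**Figure D4:**
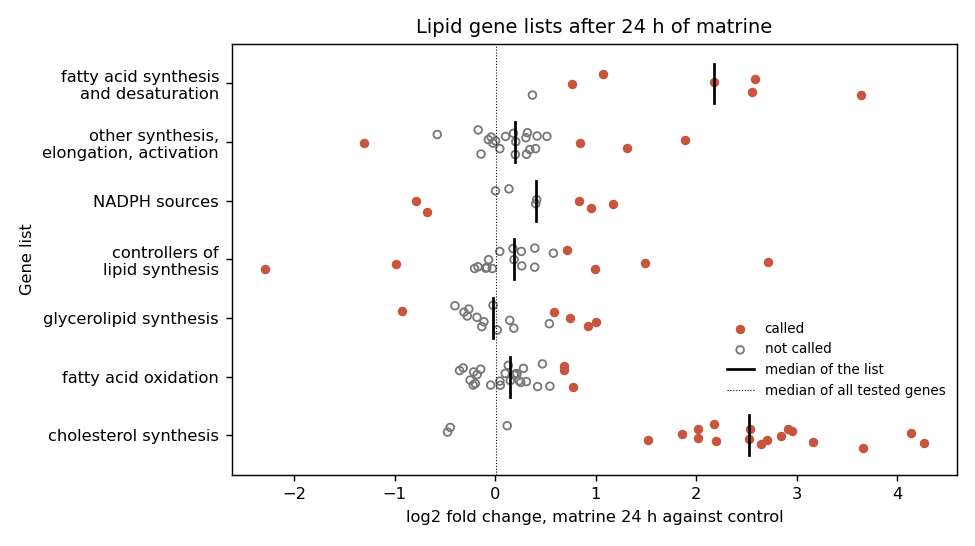
log2 fold change at 24 h against control (horizontal axis) of each tested gene (points, filled where called) by gene list, with a bar at the median of the list and a dotted line at the median of all genes tested. The members (median 2.17) and cholesterol synthesis (median 2.53) lie to the right, and the other lists have medians from -0.02 to 0.41.

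Further lists cover the use of fatty acids. In glycerolipid synthesis 17 of 20 genes were tested at 24 h, 4 were called higher and 1 lower (15.1% and 11.2% over all genes tested), with a median log2 fold change of -0.02. The lipins LPIN1 (1.00) and LPIN2 (0.92), which make diacylglycerol, and the acyltransferase MBOAT1 (0.75) were higher, and AGPAT5, an acyltransferase of phosphatidic acid synthesis, was lower (-0.92). In fatty acid oxidation 27 of 28 genes were tested, 3 were called higher and 0 lower by edgeR, with a median of 0.15, where 15.1% and 11.2% of all genes tested were called. At an unadjusted p below 0.05 in edgeR, 13 were higher and 6 lower. All 3 libraries at 24 h lay above control in 14, as in 38.7% of all genes tested. In the lower direction DESeq2 and limma also called 0. The 3 called higher were HSD17B4 of the peroxisome (0.69), the short-chain dehydrogenase ACADS (0.68) and the carnitine transferase CPT1B (0.77), which was low at 1.35 FPKM in control. The 6 lower ones were ETFA, ECHS1, HADH, ACADVL, ECI2 and ACOX3, named after their values were seen.

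For 6 of the tested members, the gene most like each over the 9 libraries is given, found as the smallest Euclidean distance between log2 CPM centred on each gene's mean. For SCD and FADS2 these were genes of cholesterol synthesis. SCD was nearest to SQLE (distance 0.208) and FADS2 to ACAT2 (0.144), each with a log2 fold change of 2.53 at 24 h. ACSS2 was nearest to TUBA1A (0.317), ACLY to MGLL (0.105), FASN to MAPK7 (0.156) and ELOVL5 to PRKAR1A (0.068), which are in none of the lists. These distances describe the values over libraries in which the 24 h group stands apart, and they carry no test.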

How the data were processed

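Per the labels, 9 RNA-seq libraries of U937 were used. The authors deposited raw counts per gene and FPKM values. Trimming with cutadapt 1.9.1, alignment with HISAT2 2.0.1 and counting with HTSeq 0.6.1 are named in their processing notes, together with GRCh37, while the article names hg38. The table holds no coordinates, so those printed are GENCODE release 44 (GRCh38) or RefSeq (GRCh38.p14). In the deposited FPKM each gene has 1 length and each library its total, and 51996 of 57905 identifiers have a symbol.

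Counts were tested with edgeR 4.0.16 (R 4.3.3), TMM and quasi-likelihood. Each comparison had 1 fit of all 9 libraries, on genes with mean FPKM above 1 over the libraries compared. Standard errors were obtained by dividing log2 fold changes by the root of F. Simulated counts with known changes served as a test of the code. Ratios were compared by exact permutation. Of 6 planned ratios, 3 lacked a measurable gene (ACACA, ELOVL6, ME1), so 6 tests were run where 12 had been planned. The planned comparison of protein sequences was not run.

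Genes named are the members, up to 3 called higher and 3 called lower genes per list by smallest adjusted p, genes called at 30 min, 6 fixed controllers and each member's nearest gene. Some genes that this rule names are not reported here. Members and lists were chosen with earlier results of these data known. Alternatives were limma 3.58.1, DESeq2 1.42.0 and other filters, scalings, thresholds and libraries.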

Additional observations from a re-analysis of the deposited data

Results flagged for a closer look

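For 6 members the change after matrine differed between the times, as tested by the comparison of 24 h with 30 min in edgeR's quasi-likelihood fit. The log2 fold change of 24 h against 30 min was 3.53 for ACSS2 (adjusted p = 2.9e-18), 2.51 for FADS2 (adjusted p = 9.6e-18), 2.49 for SCD (adjusted p = 4.7e-19) and 2.12 for FADS1 (adjusted p = 1.3e-17). It was 1.07 for FASN (adjusted p = 1.8e-11) and 0.76 for ACLY (adjusted p = 1.1e-10). In each of these genes all 3 libraries at 24 h were above all 3 at 30 min. ELOVL5, at 0.33, was under the fold change threshold. Time in culture at 24 h and matrine cannot be told apart in these libraries.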

How the results depend on the processing

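The number of members called higher was 6 at 24 h, both against control and against 30 min, and lay between 5 and 7 under the 20 alternatives tried. At a fold change of at least 2 ACLY dropped out (log2 fold change 0.761 against control and 0.765 against 30 min), and without a fold change threshold ELOVL5 was added (0.372 and 0.329). Without 1 library at a time it remained 6. Replicate numbers did not pair the libraries (correlations of same-numbered deviations from -0.224 to 0.124), and with a replicate block 6 members were again called at 24 h. No member was called at 30 min under any of these alternatives, DESeq2 and limma included, or before adjustment at p below 0.05 in edgeR. Of the other listed genes, 34 were called higher and 6 lower at 24 h, where 15.1% and 11.2% of all genes tested were called. Of the 34, 17 were genes of cholesterol synthesis. The 34 and 6 became 61 and 20 without a fold change threshold and 22 and 2 at a fold change of at least 2. At 30 min the 1 lower gene became 4 without a threshold. Those changes follow from the threshold itself.

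Values near 0 at 30 min changed sign without single libraries. Leaving out each of the 9 in turn gave -0.068 to 0.019 for ACLY (0.002 without replicate 1 of control, 0.004 without replicate 1 of 30 min) and -0.122 to 0.079 for FASN (0.001 and 0.016 without the same libraries, 0.005 without replicate 1 of 24 h), both highest without replicate 2 of 30 min. The range was -0.001 to 0.185 for ACSS2, -0.004 to 0.087 for ELOVL5, -0.015 to 0.063 for FADS1 and -0.032 to 0.128 for FADS2. Scaling by library totals alone moved the median of all genes at 24 h from 0.008 to 0.056. Depth limits ME1 and ELOVL6, for which no change could be measured.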
